A study of Mus musculus with 6 samples.

Results

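The genes described here are 6 that handle thyroid hormone, taken from the expression table by their symbols Ttr, Slco1c1, Dio2, Crym, Thra and Thrb. All 6 were among its 18204 genes, and they were followed across the cell types of the mouse hypothalamus with and without IDOL. The tissue came from C57BL/6J mice aged 8 weeks and was measured by Drop-seq, in which single cells are caught in droplets and transcripts are tagged near their 3' end with a barcode of the cell and a molecular identifier that counts each RNA once (UMI). The series holds 3 libraries of IDOL KO hypothalamus (KO1, KO2 and KO3) and 3 of WT hypothalamus (WT1, WT2 and WT3). IDOL is the ubiquitin ligase encoded by Mylip, which marks lipoprotein receptors for breakdown. The labels did not say which part of Mylip was deleted, whether each library was its own animal, or which of the 2 days of preparation it belonged to. P-values therefore measure the spread between these libraries, which may be technical, and day and genotype could not be separated.

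Thyroid hormone circulates mostly as thyroxine, T4, bound to carrier proteins. It enters the brain through membrane transporters of the endothelium and glia and is activated to T3 by the type 2 deiodinase. T3 then acts through the nuclear receptors TRα and TRβ, which also bind DNA without hormone and hold target genes low. In the hypothalamus this conversion is known for tanycytes, the elongated glial cells that line the floor of the third ventricle, and for astrocytes, while the neurons that read the hormone depend on that supply.

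The 6 genes stand here in the order of their roles, with positions on the mouse build GRCm38. Ttr encodes transthyretin, a thyroxine carrier that the choroid plexus secretes (chromosome 18, 20665280 to 20674321, plus strand). Slco1c1 encodes OATP1C1, a thyroxine transporter (chromosome 6, 141524368 to 141570177, plus strand). Dio2 encodes the type 2 deiodinase (chromosome 12, 90724552 to 90738438, minus strand). Crym encodes mu-crystallin, a cytosolic protein that binds T3 (chromosome 7, 120186380 to 120202111, minus strand). Thra encodes TRα and its splice form that binds no hormone (chromosome 11, 98740638 to 98769006, plus strand). Thrb encodes TRβ (chromosome 14, 17660261 to 18038090, plus strand). The table gave 1 row per symbol, so splice forms of Thra and Thrb could not be separated.

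In all, 9333 cells were used, with 1466, 1865 and 1946 cells in KO1, KO2 and KO3 and 1871, 1036 and 1149 in WT1, WT2 and WT3. Their summed UMIs ranged from 2452645 to 2746766 in KO libraries and from 1514439 to 3644549 in WT libraries. Only 3 barcodes occurred in more than 1 library. Mylip, the targeted gene, had 2, 0 and 0 UMIs in the KO libraries and 68, 27 and 43 in the WT libraries, which fits the labels. The mitochondrial gene mt-Nd3 went with genotype as well, at 285, 713 and 104 UMIs in KO libraries and 0 in every WT library. KO1 also held 446 UMIs of the pituitary gene Cga, 310 of them in 1 cell, and 23 of Tshb. Classes of cells were named from marker genes after clustering without the 6 genes and without a list of other thyroid hormone pathway genes, so that these did not define the classes. The 4 classes followed most closely were named from the marker lists described next, so these values do not test the names. Tanycytes were higher than all other cells in 11 of 12 markers, the exception being Cd59a, and at least 4-fold higher in 8. Their transcription factor gene Rax stood at 511 against 3.69 CPM, its UMIs scaled to one fixed total of UMIs. Tanycytes also held astrocyte markers at a summed 7892 to 10304 CPM in KO and 9270 to 11522 CPM in WT libraries. Ependymal markers summed to 1563 to 3160 CPM in KO tanycytes and 1853 to 2612 CPM in WT tanycytes. Astrocytes were higher in 16 of 16 (Agt, 4277 against 32.6 CPM), endothelial cells in 14 of 14 (Cldn5, 750 against 28.9 CPM) and neurons in 15 of 15 (Snap25, 1012 against 41.5 CPM).

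Levels below are CPM of the UMIs of the cells concerned, and means are ± SD over libraries. Slco1c1 was concentrated in endothelium, Dio2 and Crym in tanycytes and Thra in many classes, while Ttr was sparse. Endothelial cells held 54.3% of all 2005 Slco1c1 UMIs from 7.63% of the cells. Tanycytes were 4.69% of the cells and held 68.4% of the 377 Dio2 UMIs and 75.1% of the 674 Crym UMIs. Neurons, 33.5% of the cells, held 52.5% of the 3811 Thra UMIs and 61.7% of the 418 Thrb UMIs.

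**Figure D1:**
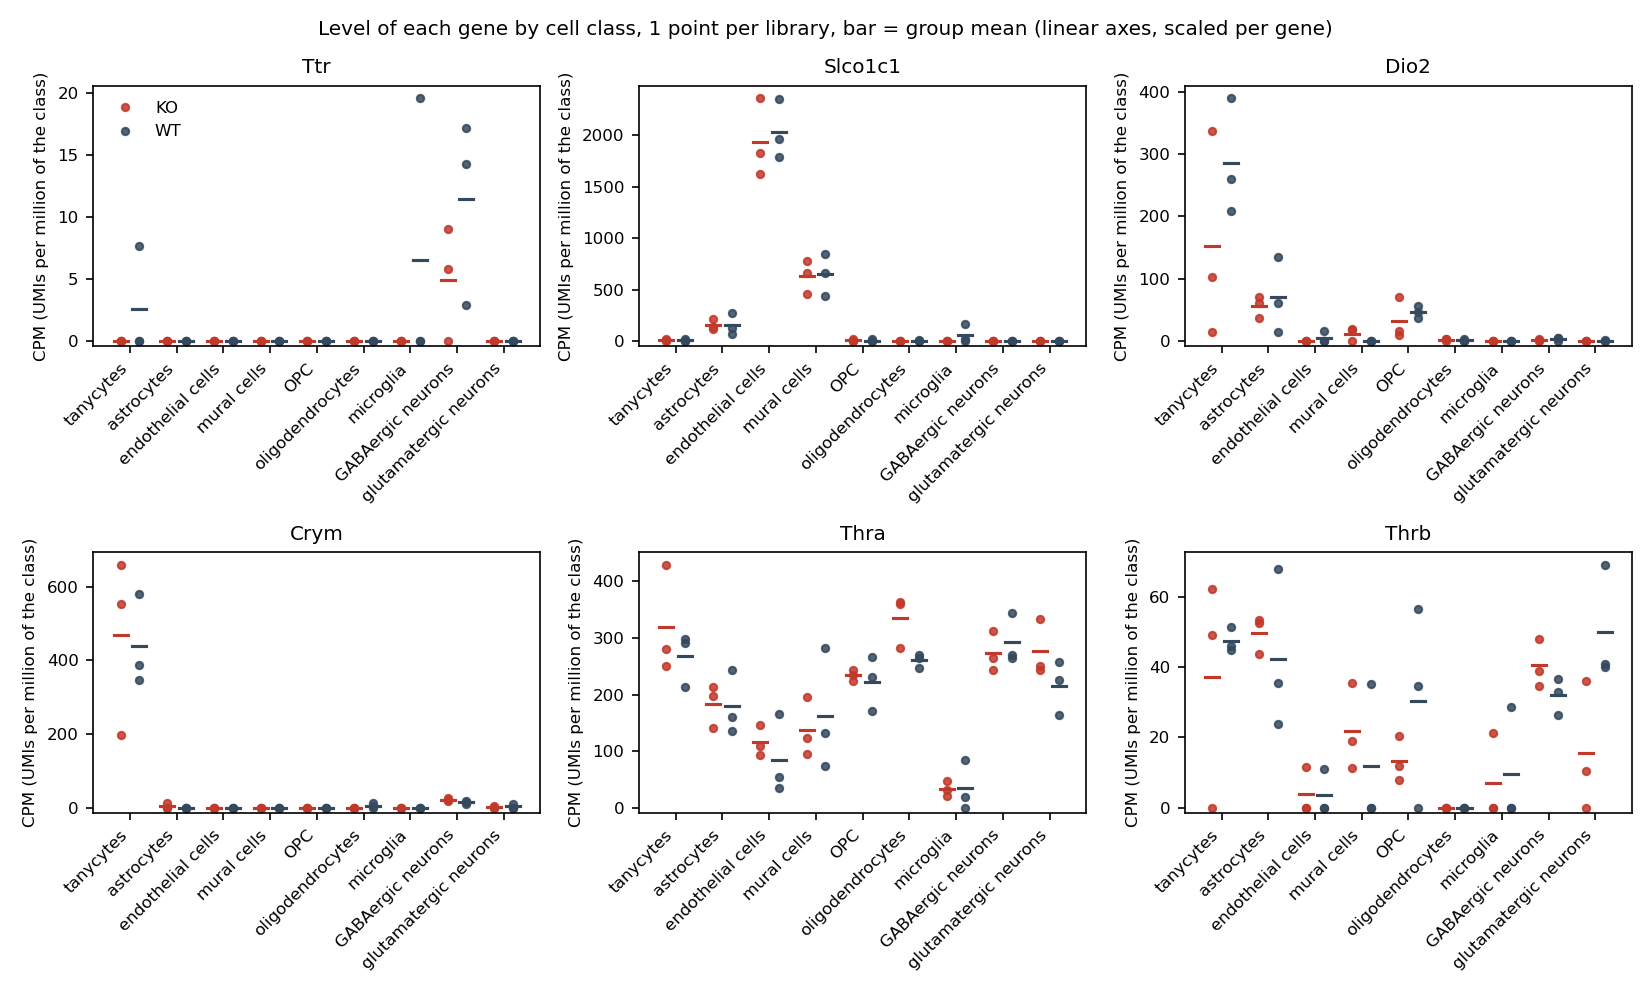
Level of each of the 6 genes per library (CPM on linear axes scaled per gene) in each cell class that had 20 or more cells per library. KO points are left of WT points in each class, and bars mark group means. Endothelial Slco1c1 stood at 1624 to 2363 CPM in all 6 libraries, tanycyte Crym at 197 to 660 CPM, and the KO and WT points overlapped in most classes.

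In the plot of levels by class, all endothelial points of Slco1c1 and all tanycyte points of Crym lay above those of every other class. Within each of these top classes the KO and WT points overlapped. For Thra most classes lay at a like height, with endothelial cells and microglia lowest by the mean. The endothelial points overlapped those of mural cells and astrocytes. No class was tested against another, because the classes are clusters of the same cells. Their order is given by means over the 6 libraries and by the number of libraries in which a class lay above the next.

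Ttr was represented by 77 UMIs in 47 cells. Over all cells it was at 0.408, 4.37 and 5.89 CPM in KO1, KO2 and KO3 and at 5.49, 16.5 and 1.64 CPM in WT1, WT2 and WT3. The groups overlapped, WT2 was highest and KO1 lowest. The log2 fold change of KO over WT was -1.03 ± 0.84 (SE; edgeR quasi-likelihood test, adjusted p = 1.00), and without WT2 it was -0.08. In such a sum over all cells, fewer cells of a type and less RNA per cell cannot be told apart.

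No choroid plexus class was found, and of a list of 13 choroid plexus genes 11 were in the table. Of the Ttr UMIs, 37 were in neurons and 36 in an unnamed cluster of 80 cells led by Mgp, Nov and Prg4. That cluster had 1, 6 and 11 Ttr UMIs in KO1, KO2 and KO3, from 13, 14 and 34 cells, and 0, 17 and 1 in WT1, WT2 and WT3, from 0, 17 and 2 cells. It also held 287 UMIs of the choroid plexus list, 276 of them from 1500015O10Rik. Among neurons, 16 Ttr UMIs were in a cluster led by Pomc, Crabp1 and Cartpt, 12 of these in WT1, and 11 in a cluster led by Gnrh1, Gal and Ghrh. Tanycytes held 3 Ttr UMIs, while astrocytes and endothelial cells held 0, which allows levels of up to 2.19 and 5.33 CPM. Whether the few Ttr UMIs were made in the cells that carried them or came from free RNA was not tested. Per 100 UMIs of the choroid plexus list, Ttr varied with a mean of 0.868 ± 0.724 (SD, n = 6 libraries), and 6577 of the list's 8930 UMIs came from 1 gene, Enpp2, mostly in oligodendrocytes (5433 UMIs).

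Slco1c1 was highest in endothelial cells. It stood at 2363, 1624 and 1834 CPM in KO endothelium and at 1787, 2357 and 1967 CPM in WT endothelium. The highest and the lowest library were both KO, so the groups overlapped completely. The means were 1940 ± 381 CPM in KO and 2037 ± 292 CPM in WT (SD, n = 3 each), with a log2 fold change of -0.06 ± 0.23 (SE; edgeR, adjusted p = 1.00). Slco1c1 was the only one of the 6 genes with enough endothelial counts for the test, and 0.0% of the 1686 genes tested in that class were called (94 had an unadjusted p under 0.05). DESeq2 also called none.

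The share of endothelial cells with a Slco1c1 UMI was compared as well. After thinning every cell to 500 UMIs it was 58.6% ± 4.83 in KO and 58.1% ± 3.61 in WT (SD, n = 3 each; two-sided exact permutation test, p = 0.8, where 0.1 is the smallest p that 3 against 3 allow). Thinning left out 137 KO and 82 WT endothelial cells. Without it the shares were 67.5% in KO and 65.2% in WT. Oligodendrocytes and microglia had thinned shares of 0.209% and 0.710%, at median depths of 1077 and 608 UMIs per cell against 604.5 in endothelium.

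Within the vasculature Slco1c1 differed strongly between clusters. The 4 endothelial clusters held 1705 to 2144 CPM, and an unnamed cluster of 151 cells led by Rgs5, Ly6c1 and Igfbp7, which mixed pericyte and endothelial genes, held 1638 CPM. The 43 cells named red blood cells held 84 Slco1c1 UMIs (1317 CPM, pooled). Their leading genes included the endothelial genes Ly6c1, Abcb1a and Flt1, and the part of endothelial RNA in them was not tested. Of the 3 clusters named mural, which cover pericytes and smooth muscle, 2 held 821 and 549 CPM, and these also carried endothelial markers at a summed 20791 and 12336 CPM. The first of them, led by Gkn3, Ly6c1 and Mgp, had 2 endothelial (Ly6c1 and Ly6a) and 2 mural (Rgs5 and Acta2) genes of the marker lists among its 10 leading genes, and held 292 of the 334 mural Slco1c1 UMIs. The third, 124 cells led by the smooth muscle genes Acta2, Myh11 and Tpm2, held no Slco1c1 UMI, which allows up to 33.5 CPM, and endothelial markers at 615 CPM. The mural level of 641 ± 167 CPM (SD, n = 6) thus went with the endothelial markers, whose part in it was not tested. Without the Gkn3-led cluster, a comparison added after the data had been seen, it was 189 ± 162 CPM.

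**Figure D2:**
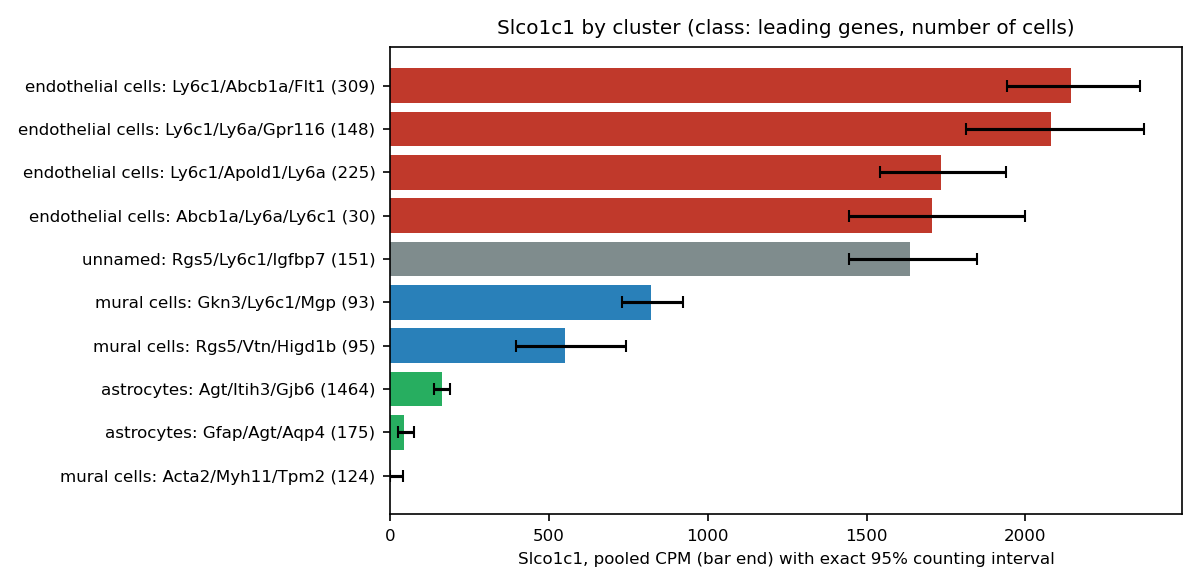
Slco1c1 level (CPM, pooled over libraries with exact 95% Poisson intervals, which cover counting error only) in each vascular and astrocyte cluster. The 4 endothelial clusters stand at 1705 to 2144 CPM and the Acta2-led mural cluster at 0.

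The plot of Slco1c1 by cluster also shows the astrocytes, the other known site of OATP1C1 in the mouse brain. Astrocyte Slco1c1 was 216, 137 and 117 CPM in KO and 68.5, 271 and 126 CPM in WT. The WT libraries were more spread than the KO libraries and covered their range. The log2 fold change was 0.21 ± 0.33 (SE; edgeR, adjusted p = 1.00), and it was -0.27 to 0.69 when 1 library was left out.

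Astrocyte Slco1c1 was below the mural and above the microglial level in 6 of 6 libraries each, but without the Gkn3-led cluster the mural level was above it in 4 of 6. The larger astrocyte cluster, 1464 cells led by Agt, Itih3 and Gjb6, held 163 CPM, and the smaller, 175 cells led by Gfap, Agt and Aqp4, held 45.2 CPM. Endothelial markers summed to 46.7 to 117 CPM in KO astrocytes and 38.7 to 121 CPM in WT astrocytes, and 0 of 14 were undetected there. The Slco1c1 means beside these sums were 157 ± 52.2 CPM in KO and 155 ± 104 CPM in WT (SD, n = 3 each), and the part of endothelial RNA in them was not tested. Tanycytes had 12 Slco1c1 UMIs and all neurons together 16.

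Dio2 was highest in tanycytes. Its level was 337, 103 and 15.3 CPM in KO tanycytes and 260, 390 and 209 CPM in WT tanycytes. KO1 lay inside the WT range and KO2 and KO3 below it, and the KO3 value was 1 UMI in 30 tanycytes. The means were 152 ± 167 CPM in KO and 286 ± 93.2 CPM in WT (SD, n = 3 each), with a log2 fold change of -0.70 ± 0.43 (SE; edgeR, unadjusted p = 0.118, adjusted p = 1.00). The difference did not pass the test, and its size rested on single libraries: it was -0.34 without KO2, -0.42 without KO3, -0.47 without WT2 and -1.89 without KO1 (adjusted p = 0.0557, against up to 1.00 under the other alternatives).

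In tanycytes 3 of the 6 genes, Dio2, Crym and Thra, had enough counts for the test and none was called, beside 0.0% of 3840 genes (152 had an unadjusted p under 0.05, and DESeq2 called none). Tanycytes made up 4.91%, 4.56% and 1.54% of cells in KO1, KO2 and KO3 and 7.54%, 6.85% and 3.39% in WT1, WT2 and WT3. The groups overlapped (two-sided exact permutation test, p = 0.3). The share of tanycytes with a Dio2 UMI, thinned to 500 UMIs, was 15.9%, 6.78% and 0.257% in KO and 10.7%, 11.9% and 8.92% in WT (two-sided exact permutation test, p = 0.7). It was 0.151% in oligodendrocytes at a median of 1077 UMIs per cell, against 1141 in tanycytes. Unthinned, the mean shares were 20.3% in KO and 24.1% in WT.

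The tanycyte class held 5 clusters. Dio2 was highest and Crym lowest in the clusters led by Scn7a, but a cluster of 91 cells was high in both. The clusters led by Scn7a, with 61 cells, held Dio2 at 694 CPM (exact 95% interval 585 to 818) and Crym at 63.1 CPM. The remaining 377 cells, led by 6330403K07Rik, held Dio2 at 132 CPM (109 to 158) and Crym at 566 CPM. They include the cluster of 91 cells, so this Dio2 level averages over unlike clusters. Dio2 was thus 5.26-fold higher in the Scn7a-led cells and Crym 8.96-fold lower, as a description of clusters built without either gene.

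The direction recurred over the libraries, since Dio2 was higher in the Scn7a-led cells in 5 of 6 libraries and Crym in 0 of 6. Dio2 in the Scn7a-led cells was 687, 234 and 0 CPM in KO and 679, 1101 and 811 CPM in WT, and KO3 had 1 such cell. In the remaining tanycytes it was 197, 85.6 and 15.7 CPM in KO and 146, 156 and 148 CPM in WT. The Scn7a-led cells were deeper, at a median of 1548 against 1025 UMIs per cell. They made up 22.2%, 10.6% and 3.33% of KO tanycytes and 17.0%, 11.3% and 7.69% of WT tanycytes. Without them the log2 fold change of Dio2 was -0.40 (adjusted p = 0.995), a comparison added after the data had been seen, and their part in the difference between genotypes was not tested.

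**Figure D3:**
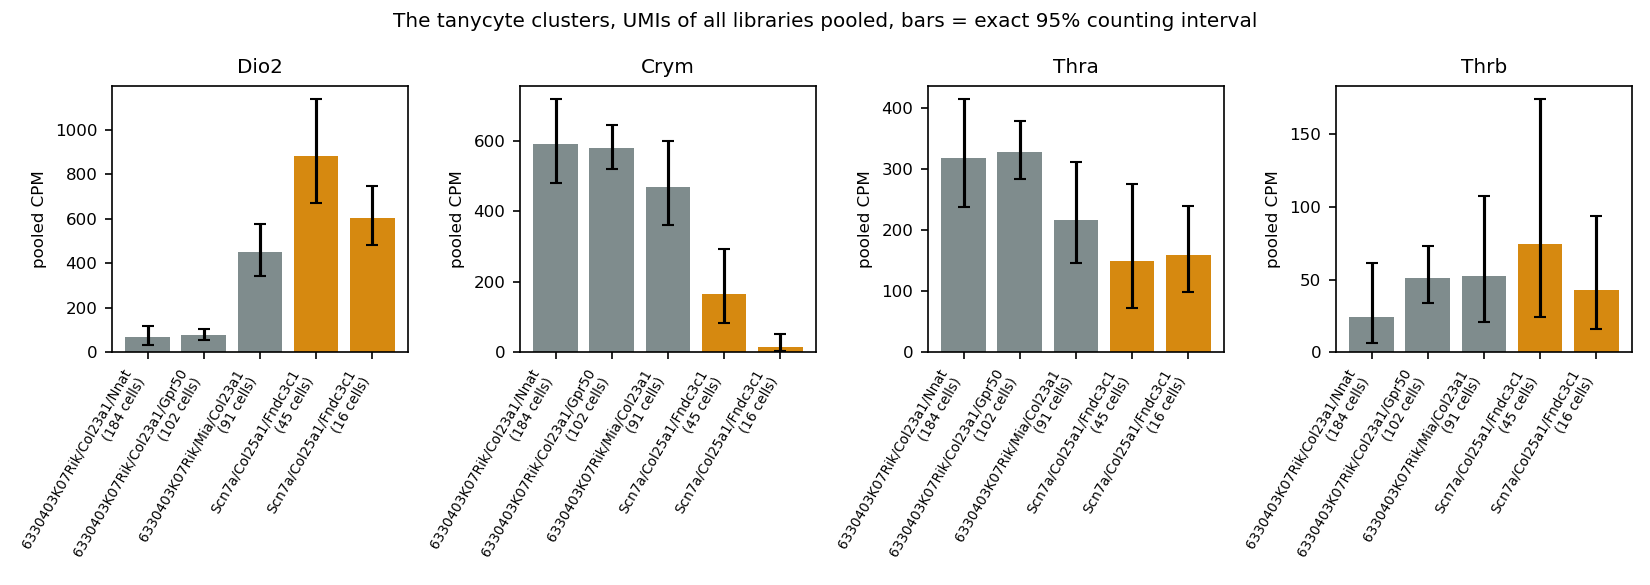
Levels of Dio2, Crym, Thra and Thrb (CPM, pooled over libraries with exact 95% Poisson intervals for counting error) in the 5 tanycyte clusters, named by their leading genes. Dio2 is highest and Crym lowest in the clusters led by Scn7a, and Crym runs from 14.4 to 592 CPM over the clusters.

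Across the 5 clusters in the plot of tanycytes, Dio2 was 883 and 604 CPM in the Scn7a-led clusters. It was 448 CPM in the cluster of 91 cells, which had Mia and Scn7a among its leading genes but was not led by Scn7a. In the remaining clusters it was 65.8 and 77.2 CPM. Crym was 165 and 14.4 CPM in the Scn7a-led clusters, against 470, 592 and 580 CPM in the others. In single cells 45 of 438 tanycytes had UMIs of both genes, 66 of Dio2 without Crym, 96 of Crym without Dio2 and 231 of neither. A Dio2 UMI was found in 67.2% of Scn7a-led and 18.6% of the remaining tanycytes, and a Crym UMI in 16.4% and 34.7%. Thrb was 53.4 and 45.9 CPM in these sets, and Thra 155 and 309 CPM, higher in the Scn7a-led cells in 1 of 6 libraries.

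Astrocytes held 70 Dio2 UMIs (18.6%). Their level was 70.0, 60.9 and 36.9 CPM in KO and 14.9, 136 and 60.7 CPM in WT. Both WT extremes lay outside the KO range. The log2 fold change was 0.02 ± 0.46 (SE; edgeR, adjusted p = 1.00), and it turned negative with DESeq2 (-0.16).

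The tanycyte level of Dio2, 219 ± 141 CPM, was above the astrocyte level, 63.2 ± 40.8 CPM, in 5 of 6 libraries (SD, n = 6 each), the exception being KO3. Astrocytes and oligodendrocyte precursors (OPC), at 39.4 ± 23.2 CPM from 19 UMIs, differed by less than their spread. Endothelial cells had 1 Dio2 UMI and neurons 16. At its start Dio2 overlaps the start of Gm26512, a noncoding gene on the other strand, by 238 bases. Drop-seq tags transcripts near their 3' end, the opposite end of both genes. The strand counted was not stated, and whether any Dio2 UMIs belong to Gm26512 was not tested.

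Crym in tanycytes was 197, 553 and 660 CPM in KO and 581, 346 and 388 CPM in WT. KO1 was lowest and KO3 highest, with all WT libraries between them. The means were 470 ± 242 CPM in KO and 438 ± 125 CPM in WT (SD, n = 3 each), and the log2 fold change was -0.02 ± 0.33 (SE; edgeR, adjusted p = 1.00). It ranged from -0.28 to 0.38 when 1 library was left out, so no direction held.

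The thinned share of tanycytes with a Crym UMI was 16.4% ± 4.74 in KO and 17.0% ± 1.81 in WT (SD, n = 3 each; two-sided exact permutation test, p = 0.8). Unthinned it was 31.7% in KO and 31.1% in WT. Oligodendrocytes had a thinned share of 0.188% and microglia of 0%. Outside tanycytes and neurons Crym was near absent at this depth. Endothelial cells, OPC, microglia and mural cells held 0 UMIs, which in endothelium allows up to 5.33 CPM, and astrocytes held 3.

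In neurons Crym was 18.9, 60.8 and 10.7 CPM in KO and 12.8, 13.0 and 10.5 CPM in WT. KO2 stood apart, while KO3 lay inside the WT range. The means were 30.1 ± 26.9 CPM in KO and 12.1 ± 1.42 CPM in WT (SD, n = 3 each), with a log2 fold change of 1.33 ± 0.45 (SE; edgeR, unadjusted p = 0.00789, adjusted p = 0.987). It did not pass the adjusted test. None of the 3 genes tested in neurons did (Crym, Thra and Thrb; 1 had an unadjusted p under 0.05, and DESeq2 called none of them), beside 0.0407% of 9818 genes, which were Mylip, mt-Nd3, Tac1 and Gm8773.

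The excess in KO2 lay in 1 cluster. Of the 152 neuronal Crym UMIs, 51 were in 16 cells of a cluster led by C1ql3, Neurod2 and Ptk2b, whose 26 cells all came from KO2. Its Crym level was 1337 CPM (exact 95% interval 996 to 1758). Without this cluster, a comparison added after the data had been seen, neuronal Crym was 18.9, 19.5 and 10.7 CPM in KO and 12.8, 13.0 and 10.5 CPM in WT. The groups still overlapped, and the log2 fold change was 0.45 (adjusted p = 0.990). Without KO2 it was 0.33 (adjusted p = 0.999).

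**Figure D4:**
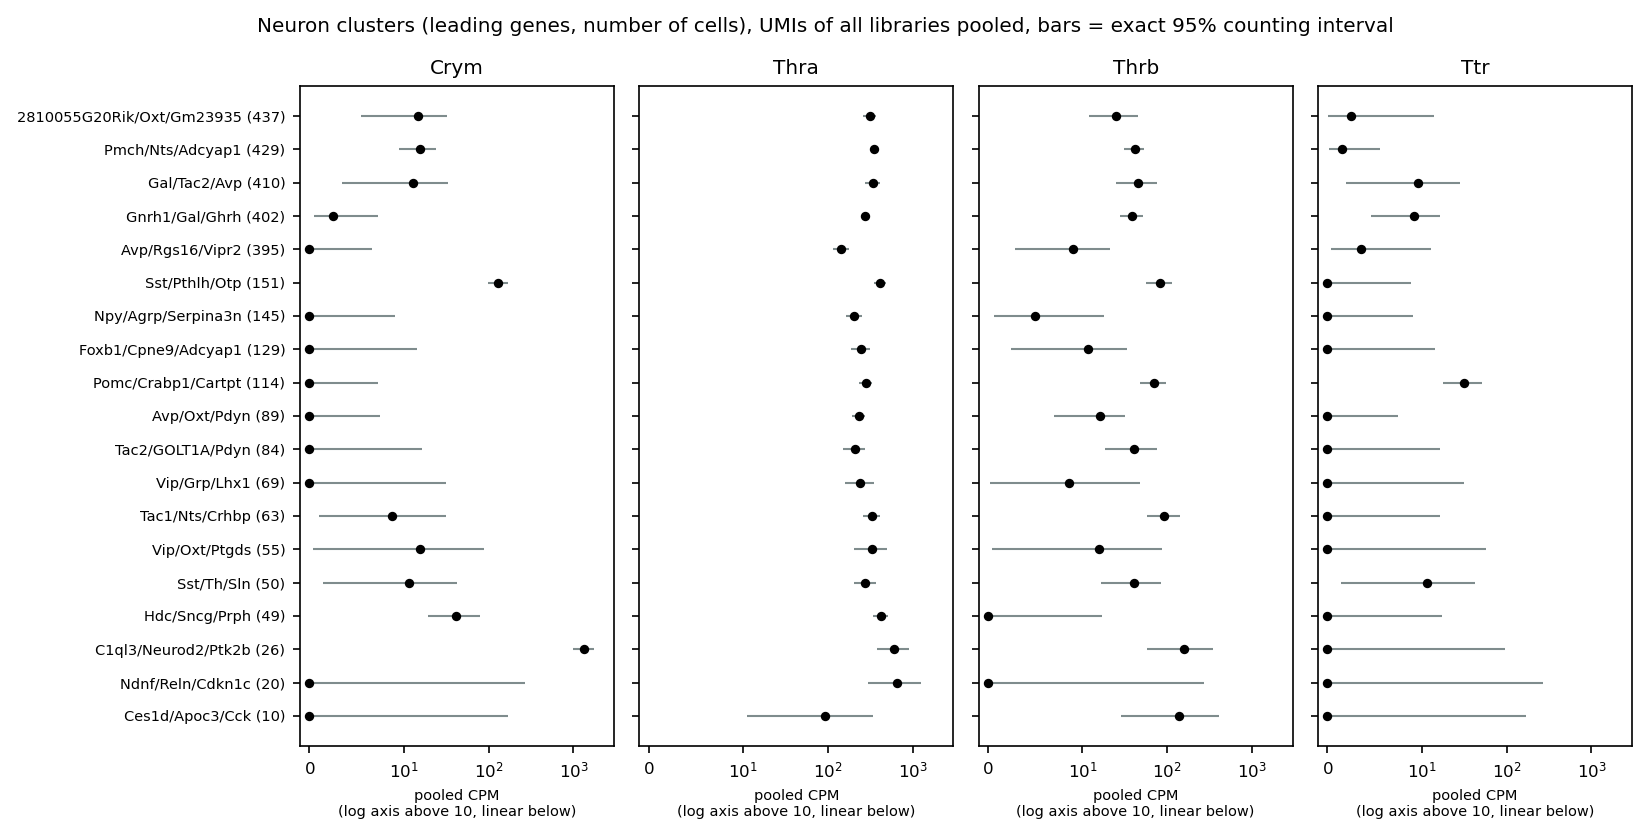
Crym, Thra, Thrb and Ttr levels (CPM, on axes that are linear below 10 and logarithmic above, pooled over libraries with exact 95% Poisson intervals for counting error) in the 19 neuron clusters, named by their 3 leading genes. Crym stands out in the C1ql3-led cluster (1337 CPM, cells of KO2 alone) and in that led by Sst, Pthlh and Otp (129 CPM). Thra was detected in every cluster.

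Among the other neuron clusters in the plot, Crym was highest in the cluster led by Sst, Pthlh and Otp, at 129 CPM (97.2 to 169). Its 54 UMIs were 16, 14 and 7 in KO1, KO2 and KO3, from 39, 40 and 16 cells, and 14, 3 and 0 in WT1, WT2 and WT3, from 40, 12 and 4 cells. The histamine-making cluster led by Hdc, Sncg and Prph held 41.8 CPM from 9 UMIs, and the cluster led by Pmch, the gene of melanin-concentrating hormone, 15.5 CPM from 20 UMIs.

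In GABAergic neurons Crym was 25.3, 21.0 and 19.4 CPM in KO and 15.1, 10.7 and 17.6 CPM in WT. All KO libraries were above all WT libraries, by a narrow gap, over 72 UMIs, and the share of all genes that separate so is not given here. The log2 fold change was 0.62 ± 0.39 (SE; edgeR, unadjusted p = 0.121, adjusted p = 0.981), and 0.0612% of the 8169 genes tested in that class were called, none of them among the 6. The cluster led by Sst, Pthlh and Otp held 54 of the 72 UMIs. It made up 6.75% to 11.2% of GABAergic cells in KO libraries against 2.53% to 8.89% in WT libraries, with overlap. Outside that cluster, a comparison added after the data had been seen, Crym was 5.87, 0 and 6.41 CPM in KO and 2.99, 4.71 and 18.5 CPM in WT, with overlap. These levels rest on 4, 0 and 3 UMIs in KO and 3, 2 and 6 in WT, too few to show where the separation lay. The part of the cluster's share in the separation was not tested.

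Whether a KO effect in 1 class differed from that in all other cells was tested with library as a block. For neurons the Crym difference was 2.15 ± 0.44 on the log2 scale (SE; edgeR interaction test, unadjusted p = 7.64e-05, adjusted p = 0.474), beside 0.00807% of 12392 genes called. For tanycytes it was -1.12 ± 0.41 (unadjusted p = 0.0082, adjusted p = 1.00), beside 0.0259% of genes called. Neither passed. The tanycyte difference passed without KO3 (-1.74, adjusted p = 0.00444) and was -0.57 without KO2 (adjusted p = 1.00). The neuronal difference passed without KO3 (2.39, adjusted p = 0.000175) and without WT3 (2.45, adjusted p = 0.0247), was 1.87 without KO2 (adjusted p = 0.377) and 1.09 without WT1 (adjusted p = 1.00). The cells set against neurons held the tanycytes, whose mean share was 3.67% in KO and 5.93% in WT, and the part of this in the difference was not tested. Tanycytes held 75.1% and neurons 22.6% of all Crym UMIs, so both tests drew on nearly the same counts and are not separate results. The C1ql3-led cluster of KO2, with 51 Crym UMIs, lay among the neurons or among the cells set against tanycytes. Its part in either difference was not tested. For Dio2 in astrocytes the difference was 1.11 ± 0.50 (unadjusted p = 0.026, adjusted p = 1.00), beside 0.0357% of genes called. The cells set against astrocytes also held the tanycytes, with 258 of the 377 Dio2 UMIs, and their part in this difference was not tested. In endothelium no gene of the 6 was called, beside 0.0178%.

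Thra, with 3811 UMIs in 2349 cells, was found in every ranked class. In neurons it was 298, 300 and 294 CPM in KO and 283, 245 and 302 CPM in WT. The KO libraries were almost equal and lay inside the WT range. The means were 297 ± 3.10 CPM in KO and 277 ± 28.7 CPM in WT (SD, n = 3 each), with a log2 fold change of 0.11 ± 0.15 (SE; edgeR, adjusted p = 0.989). The thinned share of neurons with a Thra UMI was 13.3% ± 0.652 in KO and 12.2% ± 0.918 in WT (two-sided exact permutation test, p = 0.3, n = 3 each).

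In tanycytes Thra was 280, 250 and 430 CPM in KO and 291, 213 and 299 CPM in WT, where KO3 alone lay above the WT range. Astrocytes held 140, 213 and 198 CPM in KO and 161, 136 and 243 CPM in WT, and the WT libraries spanned the KO ones. Endothelial cells held 146, 92.8 and 109 CPM in KO and 54.5, 34.2 and 165 CPM in WT, also with overlap. The log2 fold changes were 0.17 ± 0.26 in tanycytes and 0.03 ± 0.26 in astrocytes (SE; edgeR, adjusted p = 1.00 each), and in endothelium the counts were too low for the test.

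By the mean of 6 libraries, Thra ran from oligodendrocytes (298 ± 51.0 CPM) over tanycytes (294 ± 73.6), GABAergic neurons (283 ± 37.6), glutamatergic neurons (246 ± 55.1) and OPC (228 ± 32.0) to astrocytes (182 ± 43.1), mural cells (150 ± 76.9), endothelial cells (100 ± 50.8) and microglia (33.7 ± 28.8 CPM). Of these neighbours only OPC and astrocytes kept their order in 6 of 6 libraries, and endothelial cells were above microglia in 5 of 6. The differences between the other neighbours were smaller than their SD over the 6 libraries. Outside the ranked classes, ependymal cells held 298 Thra UMIs (266 CPM, pooled). The highest pooled levels of any cluster described here were in unnamed clusters of the oligodendrocyte lineage, at 735 CPM in the one led by Gpr17, Bmp4 and Neu4 and 745 CPM in the one led by Enpp6 and Cldn11.

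In oligodendrocytes Thra was 364, 283 and 360 CPM in KO and 264, 246 and 270 CPM in WT. All KO libraries were above all WT libraries, and the share of all genes that separate so in this class is not given here. The log2 fold change was 0.37 ± 0.21 (SE; edgeR, unadjusted p = 0.084, adjusted p = 0.725), beside 0.147% of 4093 genes called, and so did not pass. Thra overlaps the 3' end of Nr1d1, on the other strand, by 1075 bases, and the strand counted was not stated, so reads of the 2 genes cannot be told apart there.

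Among neuron clusters Thra ranged from 92.8 to 654 CPM, but both ends rest on few UMIs. The lowest level came from 2 UMIs in 10 cells led by Ces1d, Apoc3 and Cck (exact interval 11.2 to 335 CPM). The highest came from 9 UMIs, 8 of them in KO2, in 20 cells led by Ndnf, Reln and Cdkn1c (299 to 1241 CPM). Thra was 603 CPM in the C1ql3-led cluster of KO2, 418 CPM in the Hdc-led cluster and 412 CPM in the Sst-led cluster. It was 143 CPM in the cluster led by Avp, Rgs16 and Vipr2, genes of the suprachiasmatic nucleus, the circadian centre.

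Thrb had 418 UMIs in 338 cells. Astrocytes held it at 52.5, 53.3 and 43.6 CPM in KO and 23.8, 67.8 and 35.4 CPM in WT. The KO libraries lay inside the WT range. Tanycytes held 62.3, 49.1 and 0 CPM in KO and 45.9, 51.5 and 44.8 CPM in WT, and the 0 was KO3.

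Neurons held Thrb at 45.5, 37.0 and 26.7 CPM in KO and 35.7, 47.6 and 29.9 CPM in WT, with overlap. The log2 fold changes were 0.45 ± 0.45 in astrocytes and -0.01 ± 0.25 in neurons (SE; edgeR, adjusted p = 1.00 and 0.998), and Thrb was not tested in tanycytes. Astrocytes (46.1 ± 15.4 CPM), tanycytes (42.2 ± 21.6), GABAergic neurons (36.2 ± 7.15) and glutamatergic neurons (32.8 ± 24.6 CPM) did not differ beyond their spread over 6 libraries.

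In glutamatergic neurons Thrb was 36.1, 10.4 and 0 CPM in KO and 40.1, 40.8 and 69.1 CPM in WT. All KO libraries were below all WT libraries, over 41 UMIs in all, and KO2 and KO3 rest on 1 and 0 UMIs. The cluster led by Tac1, Nts and Crhbp, which held 21 of the 41, made up 12.1%, 13.2% and 9.80% of these cells in KO against 21.7%, 17.6% and 24.2% in WT. Outside it, also added after the data had been seen, Thrb was 36.1, 11.7 and 0 CPM in KO and 22.0, 46.0 and 0 CPM in WT, and the groups overlapped. These levels rest on 7, 1 and 0 UMIs in KO and 9, 3 and 0 in WT, too few to show where the separation lay. The part of that cluster's share in the difference was not tested. Thrb counts in glutamatergic neurons were too low for the test, in a class where 0.0% of 3070 tested genes were called. The share of all genes whose groups did not overlap in this class is not given here. In GABAergic neurons, with 144 UMIs, the groups overlapped and the log2 fold change was 0.33 ± 0.28 (SE; edgeR, adjusted p = 0.989). Oligodendrocytes, which carried Thra, held 0 Thrb UMIs among 1690243, which allows up to 1.77 CPM, and endothelial cells held 2.

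Among neuron clusters Thrb was highest in the C1ql3-led cluster of KO2, at 157 CPM from 6 UMIs. Next was the cluster led by Ces1d, Apoc3 and Cck, at 139 CPM from 3 UMIs. It was 92.4 CPM in the cluster led by Tac1, Nts and Crhbp, 81.5 CPM in that led by Sst, Pthlh and Otp and 68.9 CPM in the Pomc-led cluster. The cluster led by Npy and Agrp, the appetite-promoting neurons, held 4.93 CPM and that led by Avp, Rgs16 and Vipr2 8.96 CPM. The Hdc-led cluster held none. These are pooled levels over few UMIs and were not tested against each other.

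**Figure D5:**
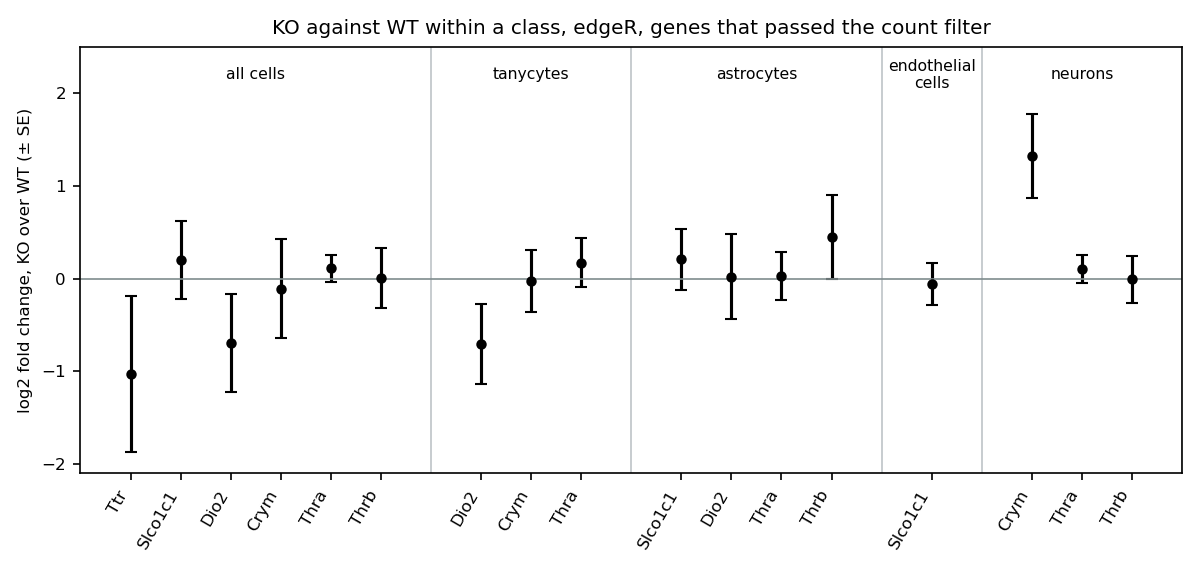
Log2 fold change of KO over WT with its SE (edgeR quasi-likelihood fit) for each of the 6 genes that passed the count filter, over all cells and in tanycytes, astrocytes, endothelial cells and neurons. No point passes the adjusted threshold of 0.05, and the farthest from 0 is Crym in neurons at 1.33.

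The plot of fold changes gathers the tests of KO against WT. Over all cells every one of the 6 was tested and none was called, beside 0.0% of 13059 genes (268 had an unadjusted p under 0.05, and DESeq2 called 4, none of them among the 6). The log2 fold changes there were -1.03 for Ttr, 0.20 for Slco1c1, -0.69 for Dio2, -0.11 for Crym, 0.11 for Thra and 0.00 for Thrb, with SE from 0.15 to 0.84. In astrocytes 4 genes were tested and none called, beside 0.0477% of 4190 genes, which were Hbb-bs and mt-Nd3. The targeted gene Mylip passed in neurons, but not over all cells (log2 fold change -6.03, edgeR adjusted p = 0.0869). It also did not pass in astrocytes (-6.01, edgeR adjusted p = 0.115), endothelium (-5.14, edgeR adjusted p = 0.813) or tanycytes (-3.67). DESeq2 called it over all cells. A gene that was not called can thus still have changed.

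The other genes of the pathway, 38 in the table of 41 listed, were not called either, in any of the 4 classes or over all cells, by edgeR or by DESeq2. At an unadjusted edgeR p under 0.05 there were 1 of 11 in tanycytes (3.96% of all genes tested), 2 of 20 in astrocytes (4.46%), 2 of 9 in endothelium (5.58%), 2 of 27 in neurons (4.31%) and 0 of 33 over all cells (2.05%). In tanycytes 11 were tested, with 9 higher and 2 lower in KO and a median log2 fold change of 0.20 against 0.00 over all genes. In endothelium 9 were tested, with 2 higher, 7 lower and a median of -0.33 against 0.00. Astrocytes had 10 higher and 10 lower of 20 tested, and neurons 16 higher and 11 lower of 27.

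Among the pathway's transporters, endothelial cells carried Slco1a4, another transporter of the OATP family, at 3561 ± 760 CPM. Slc3a2, the heavy chain of amino acid transporters that also carry thyroid hormone, was 822 ± 256 CPM in endothelium and 486 ± 70.5 CPM in astrocytes. Its log2 fold changes were -0.54 ± 0.26 in endothelium and -0.79 ± 0.40 in tanycytes (SE; edgeR, adjusted p = 0.813 and 1.00).

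Of the enzymes, Sult1a1, a sulfotransferase, had the smallest p of any pathway gene that was lower in KO endothelium and in KO astrocytes. It was 297 ± 67.1 CPM in KO and 540 ± 65.5 CPM in WT endothelium (SD, n = 3 each), with a log2 fold change of -0.86 ± 0.27 (SE; edgeR, unadjusted p = 0.0037, adjusted p = 0.813). In astrocytes it was 71.6 ± 35.4 CPM in KO and 142 ± 28.2 CPM in WT (-0.96 ± 0.31, unadjusted p = 0.00409, adjusted p = 0.986). Dio3, which inactivates the hormone, had 25 UMIs in tanycytes and none in astrocytes or endothelium. Trhde, which degrades the releasing hormone TRH, was 82.5 CPM in Scn7a-led and 20.7 CPM in the remaining tanycytes, and higher in the Scn7a-led cells in 4 of 6 libraries.

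Of the receptor partners, the corepressor gene Ncor1 was among the 3 highest pathway genes of astrocytes (227 ± 54.6 CPM) and neurons (268 ± 31.7 CPM; SD, n = 6 each). In neurons the highest also included Tbl1x, whose product joins that corepressor complex, at 166 ± 10.8 CPM. The coactivator gene Ncoa1 had log2 fold changes of 0.72 ± 0.39 in tanycytes and 0.73 ± 0.30 in astrocytes (SE; edgeR, adjusted p = 1.00 and 0.986). Hr, another corepressor gene and a hormone target, was at -0.50 ± 0.29 in astrocytes.

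Of the hormone's known target genes, Klf9 was 630 ± 157 CPM in astrocytes, 477 ± 92.3 CPM in endothelium, 399 ± 89.1 CPM in tanycytes and 108 ± 19.3 CPM in neurons (SD, n = 6 each). Thrsp was 659 ± 112 CPM in tanycytes, and Sema3c 801 ± 197 CPM in endothelium. Nr1d1, the antisense partner of Thra, was 116 ± 102 CPM in KO and 44.5 ± 38.6 CPM in WT tanycytes (SD, n = 3 each), with a log2 fold change of 1.78 ± 0.61 (SE; edgeR, adjusted p = 1.00).

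Genes of the hormone axis in neurons did not pass either. Trhr, the TRH receptor gene, was at 1.00 ± 0.43, Trhde at 0.86 ± 0.41, Trh at -0.54 ± 0.27 and Thrsp at -0.72 ± 0.44 on the log2 scale (SE; edgeR, adjusted p = 0.987 each). Tshr, the thyrotropin receptor gene, was at -0.29 ± 0.31 in tanycytes (adjusted p = 1.00).

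Over the 9 ranked classes, the genes most like each of the 6 were found by Pearson's r of mean log2(CPM + 1) among 8428 genes that reached 50 CPM in a class, as a description over 9 points that share their libraries. For Slco1c1 they were Id1 (0.98), Ccdc141 (0.98) and Angptl4 (0.97). For Dio2 they were Pdpn (0.98), Antxr1 (0.98) and Phf21a (0.97), and for Crym Zbbx (0.99), Ccdc81 (0.98) and Pifo (0.97). Ependymal cells were not among the 9 classes and held Crym at 6.25 CPM, pooled, from 7 UMIs. Likeness to Crym there was not examined. For Thra they were Ndufb11, Ube2e2 and Praf2, all at 0.97. Ttr and Thrb stayed under 50 CPM in every class and were not compared.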

How the data were processed

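Hypothalamus of 3 IDOL KO and 3 WT libraries was profiled by Drop-seq. The authors deposited 1 table of raw UMI counts, 18204 genes by 13994 barcodes. Per the submitters' processing notes, bcl2fastq, STAR 2.5.0c and the builds mm10 and GRCm38 were used. Annotation, strand and counting program are not given in the sources used here. Coordinates came from GENCODE on GRCm38, which matched 93.9% of symbols.

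Barcodes with at least 300 genes and at most 20% mitochondrial UMIs were kept (9449). Scrublet in scanpy 1.11.5, at an expected rate of 5%, called 116 doublets (1.23%), which were removed. Leiden clustering (2000 variable genes, 30 components, 15 neighbours, resolution 1; scikit-learn 1.9.0, igraph 0.11.9, leidenalg 0.10.2) gave 24 clusters, of which 9 were split again, and 44 in all. Classes were named from marker lists where 3 markers reached 4-fold over the median cluster, so each name stands for cells like that type, and 440 cells stayed unnamed. Neuron clusters were typed as GABAergic or glutamatergic from at least 10 transmitter UMIs, a minimum set after the data had been seen.

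Counts were summed per library and class, with at least 20 cells in each library, and tested by the quasi-likelihood F-test of edgeR 4.0.16 in R 4.3.3, after filterByExpr and TMM scaling, with Benjamini-Hochberg adjustment over all genes of the class at 0.05. Mylip was kept in the tests of KO against WT whether or not it passed this filter. Effects were compared between classes by an interaction with library as a block. Permutation tests used scipy 1.17.1. The scripts were tested on simulated data. Where a count was 0, the limit is 3 UMIs. Intervals are exact at 95%, and these and the limits cover counting error only. Alternatives included DESeq2 1.42.0.

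The 6 genes, the pathway list, the marker lists and the rule for named genes were chosen with earlier results of these data known. Beside the 6, the rule names the 3 pathway genes highest in each of 4 classes, the 2 with the smallest p on each side, and the 3 genes most like each of the 6. Trhde and Dio3 in tanycytes were added after their values were seen. Among the highest pathway genes of tanycytes, 1 is not reported here.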

Additional observations from a re-analysis of the deposited data

How the results depend on the processing

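Of 284 recomputed log2 fold changes of the 6 genes, 251 kept their direction and their side of the threshold, 1 passed it and 32 changed sign. The one that passed was Crym in neurons with no gene filter (1.35, adjusted p = 0.0122, against 0.143 to 1.00 under the others). The difference between neurons and other cells in the KO effect on Crym also passed with no gene filter (2.16, adjusted p = 1.53e-05). Changed signs outside the fits that left out a library were Thrb over all cells with no gene filter (-0.00272) and with doublets kept (-0.0456), Crym in tanycytes with DESeq2 (0.0425), Dio2 in astrocytes with DESeq2 (-0.16), Slco1c1 in endothelium with no gene filter (0.00301) and Thrb in neurons with no gene filter (0.0203). All are near 0. Counts of genes called moved with no gene filter (1 over all cells, 8 in astrocytes, 4 in endothelium, 35 in neurons, 5 in tanycytes), with robust settings (1 in astrocytes, 2 in endothelium, 2 in neurons), with DESeq2 (4 over all cells, 0 in astrocytes, 2 in neurons) and with at least 500 genes per cell (0 in astrocytes). With no gene filter 1 of the 6 genes (Crym) and 2 pathway genes were called in neurons, and the KO effect of 1 gene, Crym, differed between neurons and other cells. Without 1 cluster, the mean level over 6 libraries was 189 CPM for mural Slco1c1 (641 CPM with it) and 6.42 CPM for Crym in GABAergic neurons (18.2 CPM with it). The neuronal level of Slco1c1 was 2.58 CPM from sums and 4.45 as a mean of per-cell CPM. The KO minus WT difference in the share of tanycytes with a Crym UMI was -0.626 percentage points thinned and 0.590 unthinned. With 1 library left out, genes called ranged from 0 to 1 over all cells, 0 to 3 in astrocytes, 0 to 1 in endothelium, 1 to 11 in neurons and 0 to 1 in tanycytes. Members whose KO effect differed ranged from 0 to 1 in tanycytes and from 0 to 1 in neurons. The log2 fold changes ranged from -0.29 to 0.45 (Slco1c1), -0.87 to 0.50 (Crym) and -0.24 to 0.24 (Thrb) over all cells, -0.28 to 0.38 (Crym) and -0.0221 to 0.36 (Thra) in tanycytes, -0.27 to 0.69 (Slco1c1), -0.72 to 0.68 (Dio2) and -0.10 to 0.30 (Thra) in astrocytes, -0.22 to 0.0469 for Slco1c1 in endothelium and -0.22 to 0.17 for Thrb in neurons. The differences in shares ranged from -3.21 to 1.45 (Crym, tanycytes), -7.01 to 0.836 (Dio2, tanycytes), -2.27 to 2.55 (Slco1c1, endothelium) and -2.96 to 2.25 (Slco1c1, astrocytes) percentage points. The cause of these changes was not tested.

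KO and WT libraries share replicate numbers, but same-numbered libraries deviated together with r = 0.252, -0.166 and 0.223, so the numbers were not taken as pairs. With a replicate block, 1 gene was called over all cells, 2 in endothelium and 9 in neurons, none of them among the 6, and the log2 fold changes of Dio2 (-0.11) and Thra (-0.00569) in astrocytes and of Thrb in neurons (0.0067) changed sign.

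Depth set limits here. KO3 held 30 tanycytes, Ttr and Thrb rest on 77 and 418 UMIs, and genes left out by the count filter in a class, Mylip excepted, were not tested there. With doublets kept, tanycytes had under 20 cells in KO3 and gave no value.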
